A study of Mus musculus with 6 samples.

Results

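The 9 genes described here encode Wnt ligands, and they were taken by name from a deposited gene table of 14366 genes: Wnt2b, Wnt4, Wnt5a, Wnt5b, Wnt6, Wnt7b, Wnt9a, Wnt9b and Wnt11. All 9 were present and all 9 were tested. The transcriptome had been measured by RNA-seq of the mesonephros, the embryonic tissue that holds the Wolffian duct and its mesenchyme and that forms the epididymis in males, in male mouse embryos at embryonic day 16.5. There were 3 Gata2cKO samples (genotype Osr2Cre+;Gata2-flox/flox) and 3 Control samples (genotype Osr2Cre+;Gata2-flox/+). Both groups carried the Cre recombinase driven by Osr2, which is active in mesenchyme, so cells outside the Osr2 lineage keep Gata2. Controls had a floxed allele as well, so where Cre acted they are heterozygous for the loss and do not have intact Gata2. The tissue also held the mesonephric tubules. The comparison asks what mesenchymal Gata2, a zinc finger transcription factor gene, does in the development of the duct.

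Wnt ligands are secreted glycoproteins that carry a lipid. They bind Frizzled receptors on nearby cells. With the co-receptors Lrp5 and Lrp6 they stabilise beta-catenin, which then activates target genes with Tcf and Lef factors, and with Ror2 and related receptors they act on cell shape and polarity without beta-catenin. In the mouse urogenital tract, Wnt9b comes from the epithelium of the Wolffian duct and induces tubules, Wnt4 acts in the cells that form tubules, and Wnt5a comes from mesenchyme.

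Values are TPM, a level that allows for the length of each gene, so levels can be set side by side between genes. Read depth is unknown. The deposited values summed to between 997351 and 998844 TPM per library, and between 12122 and 12301 genes reached 1 TPM. Gata2 was at 431, 530 and 416 TPM in Gata2cKO libraries 1 to 3, against 384, 464 and 546 TPM in Control libraries 1 to 3. The groups overlapped, and the reason was not tested. A gene-level value may not show the loss of a floxed part, and cells outside the Osr2 lineage keep Gata2, so it does not check the genotypes. Osr2 fell, at 127 ± 9.35 TPM in Gata2cKO and 261 ± 54.1 TPM in Control (SD, n = 3 each; limma adjusted p = 0.0136). Control 1 stood apart, with 21.9% of its TPM in mitochondrially encoded transcripts where the other 5 libraries had 13.2% to 16.3%. Genes were tested with limma on log2(TPM + 1), adjusted over 12300 genes with a threshold of 0.05, and a log2 fold change is Gata2cKO minus Control on that scale, which understates the change of low genes. Nothing in the labels says that each sample is a different embryo. P-values therefore measure only how these samples varied, which may be technical.

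Among the 9 ligand genes, 3 rose (Wnt7b, Wnt2b and Wnt9b) and 1 fell (Wnt5a) in the Gata2cKO mesonephros. The other 5 did not pass the threshold. Across all tested genes 7.47% passed, 5.73% higher and 1.74% lower. The median log2 fold change was 0.28 over the 9 ligands and 0.05 over all tested genes. The 3 Gata2cKO values lay above all Control values for 4 ligands and below them for 2. Such separation was seen in 33.9% of all tested genes, 23.4% higher and 10.5% lower. In the authors' deposited table, 5 of the 9 were under an adjusted p of 0.05, where 13.3% of its genes were, 6.69% higher and 6.58% lower. These were the same 4 and Wnt6, which was lower. With median-of-ratios scaling, 54.9% of the genes past the threshold were higher, against 76.7% with the TPM as deposited.

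**Figure D1:**
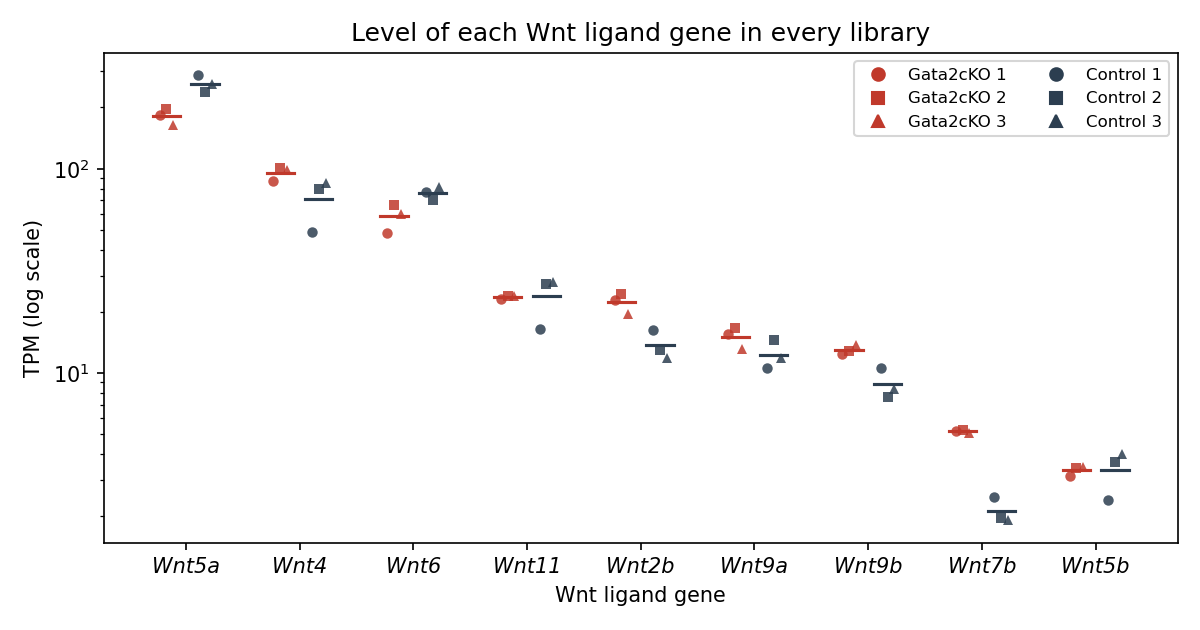
TPM of each of the 9 Wnt ligand genes (log axis) in the 3 Gata2cKO libraries (red, left) and the 3 Control libraries (dark, right), with marker shape for the library number and a bar for the group mean. Wnt5a is the highest in every library, and the Gata2cKO points of Wnt7b lie clear of the Control points.

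The ligands spanned a wide range of levels. In Gata2cKO the order of the means was Wnt5a, Wnt4, Wnt6, Wnt11, Wnt2b, Wnt9a, Wnt9b, Wnt7b and Wnt5b. Wnt11 (23.6 ± 0.482 TPM) and Wnt2b (22.2 ± 2.55 TPM) overlapped there, as did Wnt9a (15.1 ± 1.77 TPM) and Wnt9b (12.9 ± 0.658 TPM). In Control the order was Wnt5a, Wnt6, Wnt4, Wnt11, Wnt2b, Wnt9a, Wnt9b, Wnt5b and Wnt7b. The overlapping neighbours in Control were Wnt6 with Wnt4, Wnt2b with Wnt9a, and Wnt5b with Wnt7b. Other neighbours in each order did not overlap between libraries (SD, n = 3 for each mean).

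Places in the order changed at several points. Wnt4 exceeded Wnt6 within each Gata2cKO library, by ratios of 1.78, 1.51 and 1.65, against 0.638, 1.13 and 1.05 in Control libraries 1 to 3. Wnt7b, at the bottom of the order in Control libraries 2 and 3, exceeded Wnt5b in every Gata2cKO library. The ratio of Wnt7b to Wnt5b was 1.65, 1.55 and 1.46 in Gata2cKO and 1.04, 0.534 and 0.474 in Control. Ratios within a library do not depend on how libraries are scaled. Over the 36 pairs of ligands, 20 had ratios that did not overlap between the groups, and 8 of these pairs held Wnt7b and 7 held Wnt5a. Over all pairs of tested genes the share was 34.4%, and the 36 pairs share ligands, so they are not independent. These ratios were computed after the values were seen and were not tested.

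The summed level of the 9 ligands was 400.3, 449 and 401 TPM in Gata2cKO libraries 1 to 3, and 472, 454 and 493 TPM in Control libraries 1 to 3. All Gata2cKO sums were below all Control sums. The sum averaged 417 ± 27.9 TPM in Gata2cKO and 473 ± 19.2 TPM in Control (SD, n = 3 each). Wnt5a made up 45.7%, 43.5% and 40.9% of the sum in Gata2cKO and 60.8%, 52.2% and 52.8% in Control. Without Wnt5a the sums overlapped, at 236 ± 18.2 TPM in Gata2cKO and 212 ± 24.2 TPM in Control (SD, n = 3 each).

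**Figure D2:**
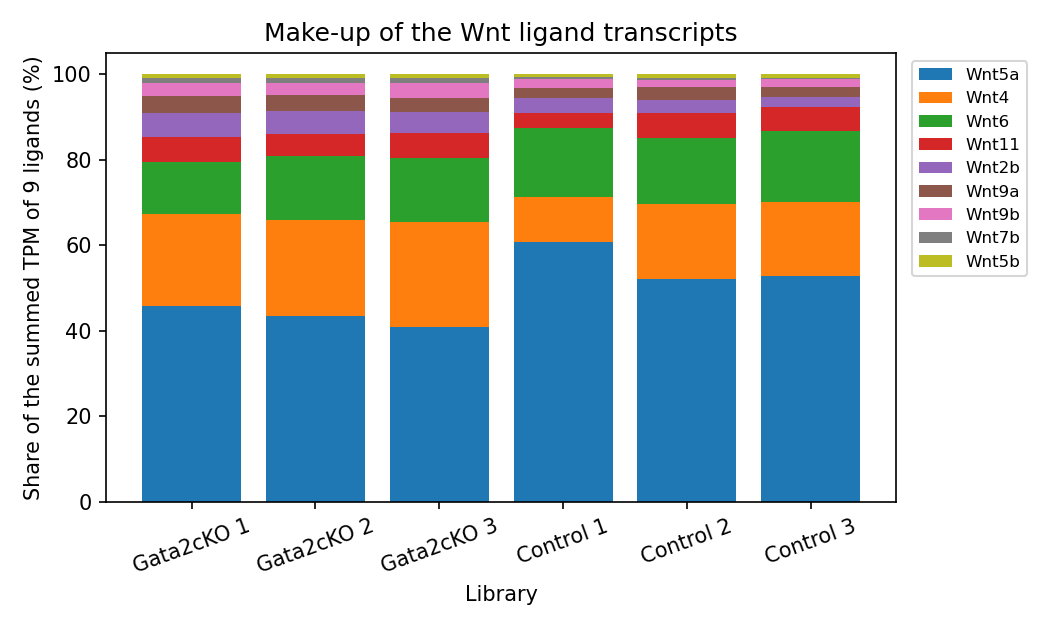
Share of each Wnt ligand gene in the summed TPM of the 9 ligands (%), for each Gata2cKO library (left 3 bars) and each Control library (right 3 bars). Wnt5a takes 40.9% to 45.7% in Gata2cKO and 52.2% to 60.8% in Control.

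Wnt7b, which signals through beta-catenin and is known from the stalk epithelium of the mouse ureteric bud, changed by the most among the 9. It had 5.19, 5.28 and 5.06 TPM in Gata2cKO libraries 1 to 3, against 2.48, 1.95 and 1.90 TPM in Control libraries 1 to 3. Every Gata2cKO value was above every Control value, and the Gata2cKO values lay within a narrow range. The means were 5.17 ± 0.109 TPM in Gata2cKO and 2.11 ± 0.319 TPM in Control (SD, n = 3 each), a ratio of 2.45. On the log2 scale the difference was 0.995 with an SE of 0.10 and a limma adjusted p of 0.00549. Wnt7b lies on the minus strand of chromosome 15 from 85535437 to 85582473 (GRCm38).

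Wnt9b, the ligand of the duct epithelium, rose as well, by a smaller factor. Its level was 12.4, 12.8 and 13.6 TPM in Gata2cKO, against 10.5, 7.60 and 8.38 TPM in Control. The groups did not overlap, and Control 1 came nearest to the Gata2cKO libraries. The means were 12.9 ± 0.658 TPM in Gata2cKO and 8.84 ± 1.53 TPM in Control (SD, n = 3 each), a ratio of 1.46 (log2 fold change 0.51, SE 0.12, limma adjusted p = 0.0454). Wnt9b is on the minus strand of chromosome 11 from 103727364 to 103749821, and its call rests close to the threshold. With median-of-ratios scaling the limma adjusted p was 0.0645, with upper-quartile scaling 0.0638, without a filter on low values 0.0613, and with TPM rescaled without mitochondrially encoded genes 0.0965.

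Wnt2b, a close relative of Wnt2 that signals through beta-catenin, also rose. It had 22.8, 24.5 and 19.5 TPM in Gata2cKO libraries 1 to 3, and 16.3, 12.9 and 11.9 TPM in Control libraries 1 to 3. The groups did not overlap, and again Control 1 was the highest Control. The means were 22.2 ± 2.55 TPM in Gata2cKO and 13.7 ± 2.33 TPM in Control (SD, n = 3 each), a ratio of 1.62 (log2 fold change 0.67, SE 0.13, limma adjusted p = 0.0309). Wnt2b is on the minus strand of chromosome 3 from 104945272 to 104961921. Its limma adjusted p was 0.0586 when TPM was rescaled without mitochondrially encoded genes.

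Wnt5a, which acts mostly without beta-catenin, through Ror2, and whose loss in the mouse shortens organs that grow out, was the most abundant ligand and the only one of the 9 that fell by the test. It had 183, 195 and 164 TPM in Gata2cKO libraries 1 to 3, against 287, 237 and 260.2 TPM in Control libraries 1 to 3. Every Gata2cKO value was below every Control value. The means were 181 ± 15.7 TPM in Gata2cKO and 261 ± 24.9 TPM in Control (SD, n = 3 each), so that Control was 1.45 times as high (log2 fold change -0.53, SE 0.10, limma adjusted p = 0.0284). Wnt5a is on the plus strand of chromosome 14 from 28504750 to 28527448. An antisense gene, Gm2670, overlaps exons of Wnt5a, and AU022754 overlaps exons of Wnt7b on the other strand, as the processed pseudogene Gm8398 does for Wnt11. No source used here says whether strand was used in counting, so the reads of these partners cannot be told apart from those of the ligands.

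**Figure D3:**
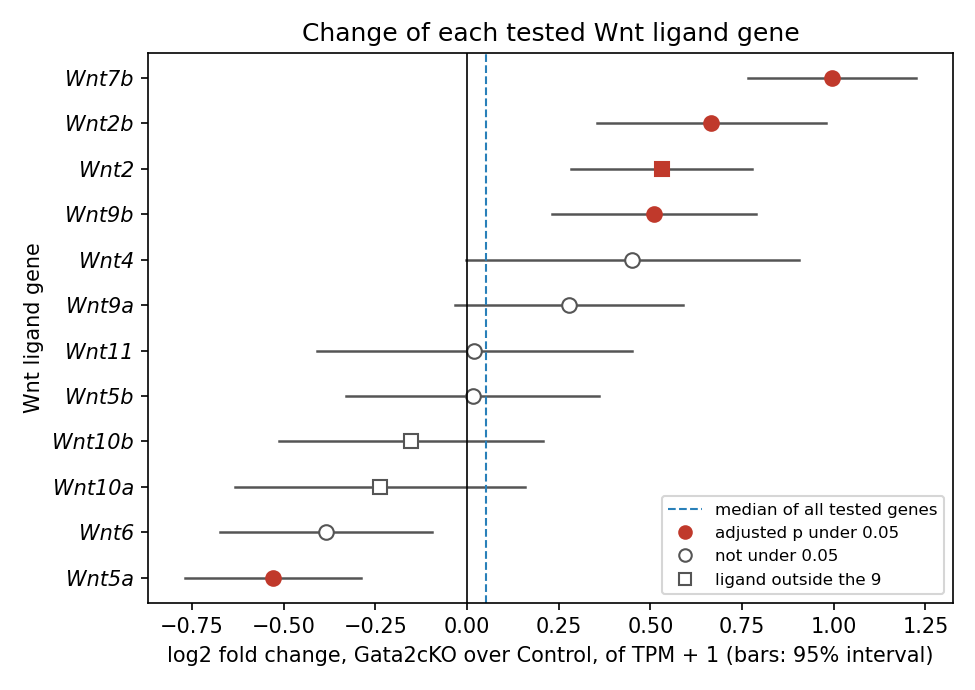
Log2 fold change of TPM + 1 (Gata2cKO over Control) of the 12 tested Wnt ligand genes with 95% limma intervals. Filled points passed the threshold, squares are ligands outside the 9, and the dashed line is the median of all tested genes (0.05).

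Wnt7b kept its call in each of the 6 fits that left out a library (highest limma adjusted p = 0.0372, without Gata2cKO 1), as did 0.715% of all tested genes. Wnt5a, Wnt2b and Wnt9b each passed without Control 1 (limma adjusted p = 0.0239, 0.00815 and 0.00861) and failed in the other 5 removals. Their highest limma adjusted p-values were 0.105 for Wnt5a and 0.143 for Wnt9b, both without Gata2cKO 3, and 0.116 for Wnt2b, without Gata2cKO 1. Their log2 fold changes kept their signs throughout, from -0.60 to -0.46 for Wnt5a, from 0.57 to 0.79 for Wnt2b and from 0.42 to 0.63 for Wnt9b. The number of genes past the threshold moved as well. It was 1539 without Control 1, or 12.5% of those tested. It was 259 (2.11%) without Control 2, 274 (2.23%) without Control 3, and 116 (0.943%), 230.0 (1.87%) and 206 (1.67%) without Gata2cKO 1, 2 and 3.

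**Figure D4:**
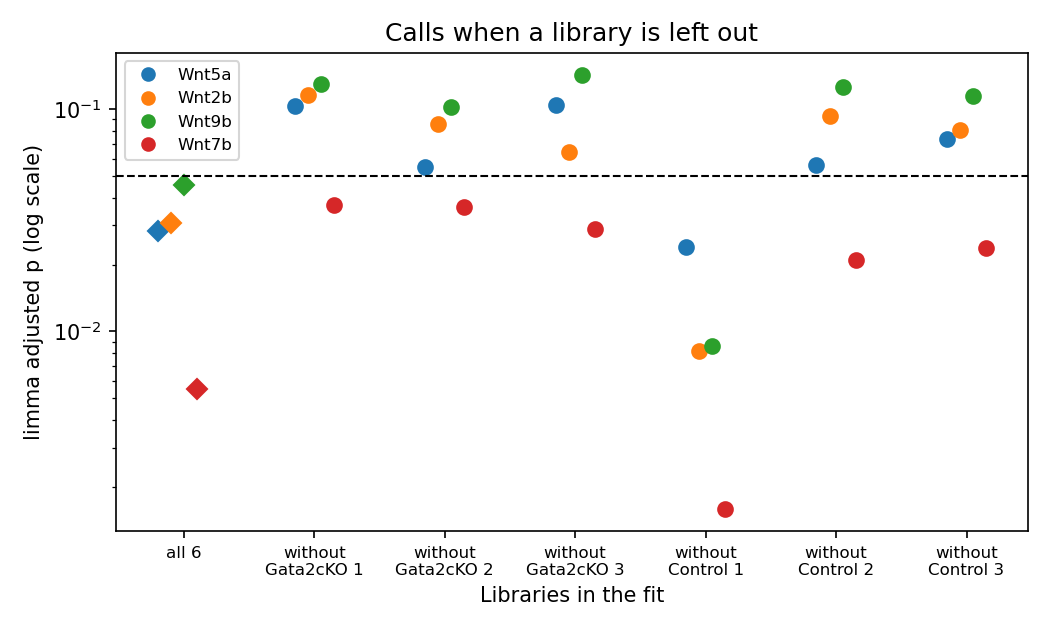
Limma adjusted p (log axis) of the 4 ligand genes past the threshold, with all 6 libraries (diamonds) and with each library left out in turn (circles). The dashed line is 0.05, and Wnt7b lies under it in every fit.

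Wnt6 and Wnt4, the ligands next in level after Wnt5a, leaned in opposite directions without passing. Wnt6, known from the mouse ureteric bud, had 48.6, 66.7 and 59.8 TPM in Gata2cKO, against 77.1, 70.0 and 81.2 TPM in Control. All Gata2cKO values of Wnt6 were below all Control values, with a log2 fold change of -0.39 (95% interval -0.67 to -0.10, limma adjusted p = 0.0983). The authors' deposited table gives Wnt6 a log2 fold change of -0.44 with an adjusted p of 0.00426. Wnt4 had 86.8, 100.7 and 98.6 TPM in Gata2cKO, against 49.2, 79.3 and 85.5 TPM in Control. The groups of Wnt4 did not overlap, and Control 1 was far below the other Controls. Its log2 fold change was 0.45 (95% interval -0.0041 to 0.90, limma adjusted p = 0.186), and 0.21 without Control 1. Wnt6 lies on chromosome 1 from 74771892 to 74785322 and Wnt4 on chromosome 4 from 137277489 to 137299726, both on the plus strand.

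Wnt9a, known from joint formation, had 15.5, 16.6 and 13.1 TPM in Gata2cKO and 10.6, 14.5 and 11.8 TPM in Control, and the groups overlapped (log2 fold change 0.28, 95% interval -0.033 to 0.59, limma adjusted p = 0.226). Wnt11, a ligand of the tips of the mouse ureteric bud, had 23.0, 23.8 and 23.9 TPM in Gata2cKO, against 16.5, 27.3 and 27.8 TPM in Control. Wnt5b, the paralog of Wnt5a, had 3.14, 3.41 and 3.46 TPM in Gata2cKO, against 2.39, 3.65 and 4.0 TPM in Control. For both Wnt11 and Wnt5b the Gata2cKO values lay between Control 1 and the other Controls. The log2 fold change of Wnt11 was 0.02 (95% interval -0.41 to 0.45, limma adjusted p = 0.958) and that of Wnt5b 0.01 (95% interval -0.33 to 0.36, limma adjusted p = 0.961). Without Control 1 these were -0.22 for Wnt11 and -0.15 for Wnt5b, and median-of-ratios scaling also turned both below zero, to -0.040 and -0.033. Wnt9a is on chromosome 11 from 59306928 to 59333552 and Wnt11 on chromosome 7 from 98835112 to 98855195, both on the plus strand, and Wnt5b is on the minus strand of chromosome 6 from 119432531 to 119544347.

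Control 1 was thus the lowest of the 6 libraries for Wnt4, Wnt9a, Wnt11 and Wnt5b and the highest for Wnt5a, and its mitochondrial share was the highest too. The part of that library's make-up in these values was not tested.

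Of the other Wnt ligand genes, 5 were in the table and 3 of those were tested. Wnt2, the relative of Wnt2b, rose to 2.19, 2.11 and 1.64 TPM in Gata2cKO, against 1.15, 1.08 and 0.936 TPM in Control (log2 fold change 0.53, SE 0.11, limma adjusted p = 0.0303; it failed with any of 4 libraries left out, at most at 0.123). Wnt2 was far below Wnt2b in every library. Wnt10a averaged 4.26 ± 0.875 TPM in Gata2cKO and 5.21 ± 1.17 TPM in Control, and Wnt10b 1.53 ± 0.447 and 1.81 ± 0.404 TPM (SD, n = 3 each), with limma adjusted p-values of 0.407 and 0.566. Wnt7a, the paralog of Wnt7b and a ligand of the Müllerian duct epithelium, was below the filter on low values. It had 0.396, 1.29 and 1.57 TPM in Gata2cKO, against 0.414, 0.384 and 0.457 TPM in Control, so that Gata2cKO 1 lay among the Controls. The authors' deposited table gives Wnt7a a log2 fold change of 1.32 (adjusted p 0.0188), and limma without the filter gives an adjusted p of 0.186. Wnt3, also below the filter, was at 0.285, 0.229 and 0.179 TPM in Gata2cKO and 0.498, 0.260 and 0.297 TPM in Control.

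Several of these genes are neighbours. Wnt10a starts 6193 bases past the end of Wnt6 on the same strand, and Wnt3 lies 24328 bases from Wnt9b on the opposite strand. The neighbours did not share a level. Wnt6 was far above Wnt10a in each library, and Wnt9b passed the threshold while Wnt3 stayed under 1 TPM in each library.

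The Gata2cKO libraries also differed in markers of cell types. In bulk tissue, fewer cells of a type and less RNA per cell cannot be told apart. Among 13 tested markers of the duct epithelium 3 rose (Epcam, Cldn4 and Krt19) and 0 fell, and their list summed to between 1328 and 1342 TPM in Gata2cKO and between 1026 and 1115 TPM in Control. Of 7 tested mesothelial markers 4 rose, with sums of 577 to 672 TPM in Gata2cKO and 357 to 460 TPM in Control. Krt19 is in both lists and counts as a riser in both, and without it the mesothelial sums were 430.02 to 482 TPM in Gata2cKO and 255 to 331 TPM in Control. Of 13 tested mesenchymal markers 2 rose (Col3a1 and Foxf1) and 5 fell (Osr2, Tcf21, Nr2f1, Nr2f2 and Twist2). Their sums overlapped, at 8569 to 11079 TPM in Gata2cKO and 7816 to 9962 TPM in Control. These sums consist mostly of Col1a1, Col1a2 and Col3a1, which averaged 4458, 1450 and 2107 TPM in Gata2cKO. They say little about the other mesenchymal markers. Of the 14 epithelial markers, Ret, a receptor gene of the early duct, was below the filter at 0.0628 to 0.387 TPM over the 6 libraries, while Pax8 and Epcam were above 1 TPM in each library. All 13 mesenchymal markers passed the filter. All 4 tested renal markers rose, as did 3 of 7 endothelial, 3 of 6 leukocyte and 1 of 4 nerve and glia markers, while 3 of 7 smooth muscle markers fell and 0 of 6 erythroid markers passed (limma; 2 at an unadjusted p under 0.05 and 0 in the authors' deposited table). The 3 leukocyte markers that rose were Tpsb2, Cma1 and Cpa3 (log2 fold changes 1.29, 1.35 and 1.10). Cd68, Csf1r and Adgre1 did not pass, with log2 fold changes of -0.20, 0.13 and 0.40 (limma adjusted p = 0.232, 0.483 and 0.0581). The rise was thus not shared by the whole leukocyte list. Of 9 gonadal markers, 4 were tested and none of these passed by limma. Of these, 0 were at an unadjusted p under 0.05, and 0 were called in the authors' deposited table. The share of all tested genes under that unadjusted p was not counted.

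The ligands were therefore set against each marker within the same library, a description added after the values were seen. Wnt7b over Epcam, an epithelial adhesion gene, was 0.0526, 0.0494 and 0.0505 in Gata2cKO and 0.0330, 0.0284 and 0.0241 in Control. Wnt7b was higher without overlap relative to each of the 13 epithelial markers, to 11 of the 13 mesenchymal markers (all but Osr1 and Foxf1) and to 4 of the 7 mesothelial markers (all but Upk3b, Lrrn4 and Msln). It was higher without overlap relative to 95.5% of all other tested genes. Wnt9b over Epcam was 0.125, 0.119 and 0.136 in Gata2cKO, against 0.141, 0.111 and 0.106 in Control, which overlapped. Wnt9b was higher without overlap relative to 5 of the 13 epithelial, 6 of the 13 mesenchymal and 1 of the 7 mesothelial markers. It was lower relative to 1 mesenchymal and 1 mesothelial marker, and it was higher relative to 56.7% of all other tested genes.

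Wnt2b was higher without overlap relative to 6 of the 13 epithelial, 6 of the 13 mesenchymal and 1 of the 7 mesothelial markers, and overlapped for the rest. Over all other tested genes the share was 68.5%. Wnt5a over Pdgfra, a receptor gene of fibroblasts, was 1.25, 1.22 and 1.32 in Gata2cKO and 2.10, 1.84 and 1.94 in Control. Relative to the 13 mesenchymal markers Wnt5a was lower without overlap for 7, and it overlapped for 6, namely Osr2, Tcf21, Nr2f1, Nr2f2, Twist1 and Twist2, of which all but Twist1 fell themselves. It was lower relative to 12 of the 13 epithelial and all 7 mesothelial markers, and to 83.7% of all other tested genes. A ratio shows unequal change and not which gene moved, and the part of cell composition in the ligand values was not tested.

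Promoter sequences are shown for ligand genes that rose, since Gata2 binds the letters GATA, and for Wnt11, the one ligand whose first start site holds matches to the motifs searched. RefSeq (GRCm38.p6) gives windows from 250 bases before to 50 bases after a gene's start for 7 of the 9 ligands, 10 windows in all, and none was used for Wnt5a and Wnt7b. Capitals mark the motifs searched, which on either strand were for GATA factors the word AGATAA, the word TGATAA, the word AGATAG and the word TGATAG, for Tcf and Lef factors the word CTTTGAT and the word CTTTGAA, and for the TATA box the word TATAAA. The sequences are written along the strand of the gene.
Wnt2b, chr3:104961660-104961959, minus strand: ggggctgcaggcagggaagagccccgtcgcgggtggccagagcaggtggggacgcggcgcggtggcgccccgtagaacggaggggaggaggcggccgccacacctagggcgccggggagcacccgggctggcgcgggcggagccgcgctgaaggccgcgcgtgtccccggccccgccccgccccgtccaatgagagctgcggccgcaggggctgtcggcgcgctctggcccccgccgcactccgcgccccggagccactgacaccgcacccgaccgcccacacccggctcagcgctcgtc
Wnt9b, chr11:103749772-103750071, minus strand: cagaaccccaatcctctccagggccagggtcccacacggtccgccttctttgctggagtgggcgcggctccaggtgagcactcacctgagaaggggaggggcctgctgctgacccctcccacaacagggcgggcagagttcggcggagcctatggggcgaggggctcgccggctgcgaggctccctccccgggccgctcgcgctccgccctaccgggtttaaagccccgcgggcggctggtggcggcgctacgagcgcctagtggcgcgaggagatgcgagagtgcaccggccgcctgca
Wnt11, chr7:98834862-98835161, plus strand: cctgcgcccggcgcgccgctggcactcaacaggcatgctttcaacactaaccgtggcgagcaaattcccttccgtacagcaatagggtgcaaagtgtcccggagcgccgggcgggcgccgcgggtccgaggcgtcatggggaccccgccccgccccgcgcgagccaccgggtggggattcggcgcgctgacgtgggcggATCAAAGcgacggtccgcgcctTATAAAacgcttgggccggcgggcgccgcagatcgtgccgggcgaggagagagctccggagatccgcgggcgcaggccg

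The windows of Wnt2b and Wnt9b held none of these letters. The first Wnt11 window held a Tcf/Lef match 51 bases before the start, on the minus strand, and TATAAA 29 bases before it. Of the 10 windows of the ligands, 1 had a GATA match, in the second window of Wnt11, where 29.8% of the 32851 windows in the table had at least 1. Tcf/Lef letters were in 8.65% and TATAAA in 13.6% of all windows. The GC content was 79.7% in the Wnt2b window and 71.7% in the Wnt9b window, where the median of all windows was 52.7%, and such composition makes letters rich in A and T rarer. A match is a description and not a site of binding, and a window without one says nothing about the factor.

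For the 4 ligands past the threshold, the genes with the most similar pattern were taken by the root-mean-square difference in log2(TPM + 1), each gene centred on its own mean over the 6 libraries. For Wnt7b these were Scn3b (0.0691), L1cam (0.0764) and Gsta3 (0.0775). For Wnt2b they included Prss8 (0.0633) and Ocln (0.0724). For Wnt9b they were Tfap2b (0.0539), Gstm5 (0.0565) and Fhl1 (0.0578), and for Wnt5a they included Fbxo7 (0.0240) and Atxn2 (0.0449). The genes nearest to Wnt9b did not pass the threshold themselves (limma adjusted p = 0.0751, 0.0543 and 0.0565), while those named for the other ligands did. The values in brackets after each gene name are differences on the log2 scale over 6 libraries that share 2 groups, and carry no test.

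The rest of the Wnt pathway was read from 8 lists, with 76 tested genes in all apart from ligands. Of these 6 rose and 0 fell, or 7.89%, where 7.47% of all tested genes passed. One of the 6, Wif1, passed the filter only through the Gata2cKO libraries, where it was high, and without it 5 of 75 rose, or 6.67%. The 6 were receptors and antagonists. Among 10 Frizzled receptors 2 rose: Fzd4, which had 87.7, 88.3 and 84.3 TPM in Gata2cKO and 49.3, 57.2 and 53.9 TPM in Control, and Fzd10, which averaged 99.1 ± 8.16 TPM in Gata2cKO and 70.4 ± 1.96 TPM in Control (SD, n = 3 each), with limma adjusted p-values of 0.00884 and 0.0207. Fzd4 passed whichever library was left out, while Fzd10 failed in 5 of the 6 (highest adjusted p 0.0806, without Gata2cKO 3). The Frizzled list had a median log2 fold change of 0.36. The authors' deposited table calls 5 of the 10, all higher, where 6.69% of all its genes were called higher.

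Among 14 tested antagonists 4 rose and 0 fell, or 3 of 13 without Wif1. The authors' deposited table calls 5 of the 16 antagonists it holds, all higher, where 6.69% of all its genes were called higher. Without Control 1, limma gave 5 higher and 1 lower of the 14, where 12.5% of all tested genes passed. The lower one was Sfrp5, a secreted Frizzled-related protein gene (log2 fold change -0.64, limma adjusted p = 0.0128; 0.175 with all libraries), and Sfrp4 was added to the higher ones (adjusted p = 0.0261). Sostdc1, which binds Lrp co-receptors and BMPs, had 74.2, 93.1 and 80.0 TPM in Gata2cKO, against 32.4, 38.6 and 41.4 TPM in Control (limma adjusted p = 0.00739). Dkk1, which blocks Lrp5 and Lrp6, averaged 12.9 TPM in Gata2cKO and 3.14 TPM in Control, and its relative Dkk2 averaged 3.53 ± 0.317 and 2.08 ± 0.447 TPM (SD, n = 3 each), with limma adjusted p-values of 0.00165 and 0.0397. Wif1, which binds Wnt proteins, averaged 1.82 ± 0.469 TPM in Gata2cKO and 0.480 ± 0.172 TPM in Control (limma adjusted p = 0.0178). Dkk1 and Sostdc1 passed whichever library was left out. Wif1 failed in 3 (highest adjusted p 0.0713) and Dkk2 in 5 (highest adjusted p 0.130).

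**Figure D5:**
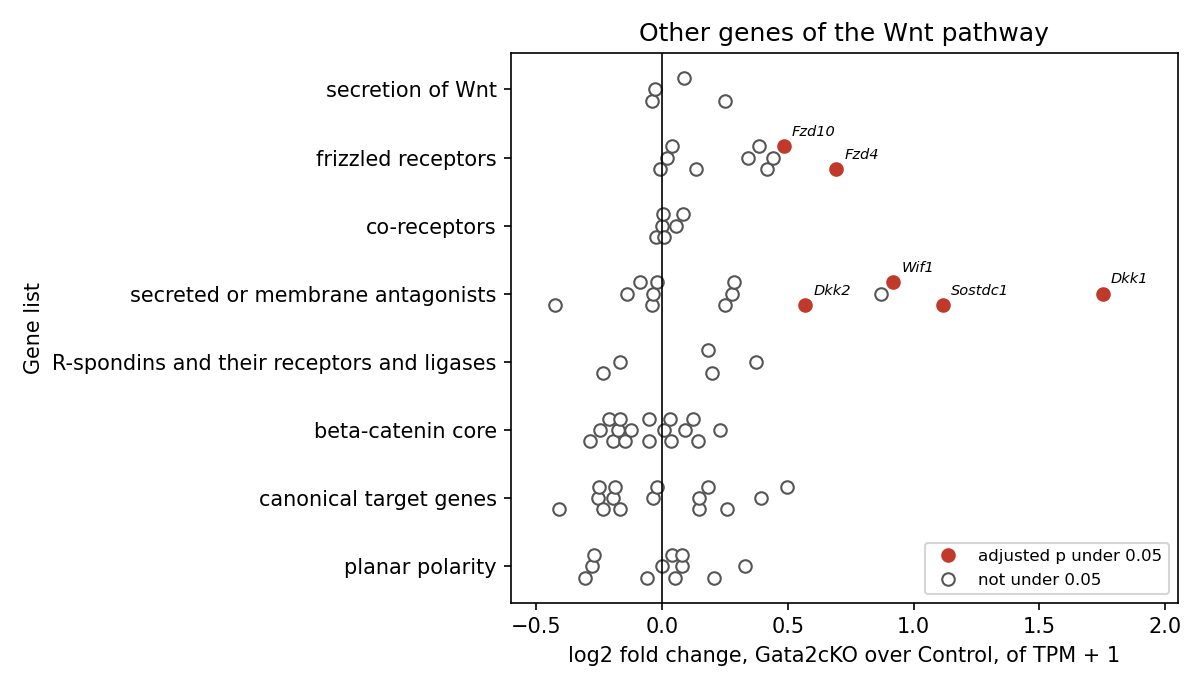
Log2 fold change of TPM + 1 (Gata2cKO over Control) of each tested gene in 8 lists of the Wnt pathway, 1 point a gene, spread vertically only to separate points. Filled points passed the threshold and are named, and they lie in the lists of Frizzled receptors and of antagonists.

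No tested member passed by limma in the other 6 lists. Of 15 tested canonical targets, genes that beta-catenin is known to raise, 3 were higher and 3 lower at an unadjusted p under 0.05. The authors' deposited table calls 1 higher and 3 lower of the 16 targets it holds, where 6.69% of all its genes were higher and 6.58% lower. How many of all tested genes were under that unadjusted cutoff was not counted. Their share is above 7.47%, since every gene past the adjusted threshold is also under it. Counts at that cutoff, here and below, are therefore not read as an excess or a lack. The median log2 fold change of these targets was -0.04. The target with the smallest p was Sp5, at 65.1, 83.6 and 78.0 TPM in Gata2cKO and 96.0, 89.1 and 117 TPM in Control (log2 fold change -0.41, limma adjusted p = 0.0988). Axin2, a feedback inhibitor read as a sign of beta-catenin signalling, had 28.03, 31.0 and 23.2 TPM in Gata2cKO, against 25.7, 22.4 and 25.5 TPM in Control, with overlap (limma adjusted p = 0.465). Without Control 1, where 12.5% of all tested genes passed, 1 of the 15 targets passed. It was Nkd1, an inhibitor of Dishevelled, which was lower in Gata2cKO (log2 fold change -0.47, limma adjusted p = 0.0298, and 0.418 with all libraries).

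Among the 4 genes of Wnt secretion, Wls, the carrier of lipid-bearing Wnt proteins, had the smallest p, with 18.9 ± 0.780 TPM in Gata2cKO and 15.7 ± 0.351 TPM in Control (SD, n = 3 each; limma adjusted p = 0.0830, the single member at an unadjusted p under 0.05). Of the 6 tested co-receptors 0 were at an unadjusted p under 0.05, and the smallest p was that of Lrp6 (limma adjusted p = 0.508). In the beta-catenin core of 17 genes, 1 was higher and 1 lower at that level, with Dvl1, a Dishevelled adaptor, at a limma adjusted p of 0.126. Among 5 tested genes of the R-spondin system, which guards Frizzled receptors from removal, 1 was higher and 1 lower at that level. The lower one was Znrf3, a ligase that removes Frizzled (limma adjusted p = 0.155). Znrf3 is also a canonical target and is counted as lower in that list too, so the lists are not independent. Rnf43 is in the same lists as Znrf3. Lef1 and Tcf7 are in the core and target lists, and Notum and Apcdd1 in the antagonist and target lists. Among 11 tested planar polarity genes 1 was higher and 1 lower at that level, with Prickle1 at a limma adjusted p of 0.128. The authors' deposited table calls 0 genes of the secretion and co-receptor lists. It calls 2 of 17 in the beta-catenin core, 1 of 8 in the R-spondin system and 2 of 12 in planar polarity. All of these were lower, where 13.3% of all genes in that table were called and 6.58% were called lower. With so few genes these counts are not read as an excess.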

How the data were processed

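RNA-seq of 3 Gata2cKO and 3 Control mesonephroi came as a table of 14366 genes. Per the labels' protocols, libraries were made from polyadenylated RNA with random priming. The submitters' processing notes list STAR 2.7.11a, DESeq2, DESeq and GRCm38 without saying what each did. The deposited values are TPM made by the authors, as judged from the library sums. No source used here states the quantifier or the gene filter. The authors also deposited a log2 fold change, a p-value and an adjusted p-value per gene.

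Columns were matched to samples by library name. The 12300 genes that reached 1 TPM in 3 libraries were fitted by limma 3.58.1 (R 4.3.3), on log2(TPM + 1), with a variance trend and 1 term for the group. Tests were two-sided with Benjamini-Hochberg adjustment. All adjusted p-values are from limma unless the authors' deposited table is named. The script was tested on simulated data. TPM keeps no depth, so no counting intervals are given.

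Members and lists were chosen with earlier results of these data known. Named genes are the 9 ligands, other ligands in the table, list members past the threshold (or the smallest p), and the 3 nearest patterns, leaving out predicted genes; some of the nearest genes are not reported here. Axin2, Nkd1, Sfrp4, Sfrp5 and markers named in ratios were chosen after their values were seen. Positions are from GENCODE M21 (GRCm38). Alternatives covered the pseudocount, the filter, scaling, the variance prior, a replicate block and each library left out. Some ligand genes are not analysed here.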

Additional observations from a re-analysis of the deposited data

How the results depend on the processing

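The count of ligands past the threshold was 4 with all libraries, 3 without a filter on low values (6.1% of all tested genes) and with median-of-ratios (7.21%) or upper-quartile (7.8%) scaling, and 2 with TPM rescaled without mitochondrially encoded genes (5.86% of all tested genes), the cause of which was not tested. With a library left out it ranged from 1 to 4, the count over all genes from 116 to 1539 and the count over the pathway lists, 7 with all libraries and Wnt2 included, from 3 to 10. Fits without a library rest on fewer samples. Signs turned where values were near zero. Wnt5b was at -0.033 with median-of-ratios scaling, -0.0077 with upper-quartile scaling and -0.030 without mitochondrially encoded genes, and from -0.15 to 0.13 with a library left out. Wnt11 was at -0.040, -0.0097 and -0.038 in the same 3 scalings and from -0.22 to 0.14 with a library left out. Gata2 ranged from -0.14 to 0.11 with a library left out.

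The labels number the replicates alike in both groups but do not say that a number marks a shared litter. Same-numbered libraries had correlations of deviations of 0.245, -0.073 and 0.038, so the numbers were not taken as pairs, and not every library correlated best with its own number. With a replicate block 774 genes and 3 ligands passed, and Wnt9b was at a limma adjusted p of 0.0548. Of 378 single-gene values under alternatives, 325 kept their direction and their side of the threshold, 40 lost the call, 1 gained it and 12 changed sign.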
